A study of Mus musculus with 17 samples.

Results

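The comparison described here is the response of wild-type (WT) mouse CD8+ T cells to an antibody against CD3, measured as 3 libraries of stimulated cells against 3 libraries of unstimulated cells. These 6 libraries were taken from the 17 of the study by their labels alone, and every gene with enough counts was compared. All 6 came from CD8+ T cells of strain C57BL/6 that were CBLB WT, that is, with Cblb intact, and the only agent the labels give for the stimulated group is anti-CD3, for 12 h. The unstimulated group has no time on its labels and its columns are marked D0, so the effect of the antibody and that of 12 h in culture cannot be told apart. The study also holds unstimulated and anti-CD3 stimulated CBLB knockout (KO) cells, 3 libraries each, and cells of both genotypes given anti-CD3 with anti-CD28, 2 libraries for WT. RNA was purified from cells reported as over 99% CD8+, depleted of ribosomal RNA and sequenced as stranded paired-end libraries. The labels do not say that replicates came from separate animals. Every p below measures the spread within groups over the libraries fitted, all 17 unless stated. That spread may be technical only.

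CD3 is the signalling module of the T cell receptor (TCR), and an antibody that clusters it starts the phosphorylation cascade, calcium entry and transcription factor activation that antigen would start. NFAT, AP-1 and NF-κB then turn on cytokines, chemokines, activation receptors and the metabolic programme of growth, while genes of the resting state are shut off. CD8+ T cells are a main source of interferon-γ (IFN-γ), which acts back on the producing cells through its receptor and the JAK kinases. Cblb encodes an E3 ubiquitin ligase that restrains this signalling in cells that lack CD28 costimulation.

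The 6 libraries held 16635826 to 35996627 counts, and 16246 genes passed the filter on low counts. Levels are given in CPM, a gene's count scaled to a common library total, and are relative: when some genes take a larger share, others take a smaller one. Changes are log2 fold changes, anti-CD3 minus unstimulated, with the standard error, and a gene was called at an adjusted p under 0.05. In bulk RNA, fewer cells of a type and less RNA per cell cannot be told apart. The GC contrast, which is the median log2 deviation of genes with at least 56% GC minus that of genes with at most 40%, lay between -0.747 and -0.311 in the unstimulated libraries and between -0.407 and -0.114 in the stimulated ones, so the ranges overlapped. All 8 markers of CD8 T cells were present, led by Cd8a and Cd8b1, and their summed level was 3685 to 3735 CPM in unstimulated and 2241 to 2247 CPM in stimulated libraries. Cd4 had at most 9 counts in any of the 6 libraries, Cd14 at most 2, and Mpo was at 0. With their other members, the markers of CD4 and regulatory T cells summed to 36.0 to 49.8 CPM before stimulation. After it they summed to 34.4 to 37.9 CPM, and 0 of the 4 tested were called. B cell markers summed to 304 to 356 CPM before and 235 to 267 CPM after stimulation, nearly all of it Ighm. Of 6 tested, 2 were called lower, Ighm and Cd79b, and 0 higher. Of 7 NK cell markers 3 were called lower, with sums of 216 to 229 and 93.8 to 122 CPM. Of 3 γδ T cell markers 3 were called lower, with sums of 11.9 to 14.3 and 4.72 to 6.18 CPM. Myeloid markers summed to 4.44 to 6.09 CPM over all 6 libraries, and of 4 tested 1 was called lower, Itgam, and 0 higher. Dendritic cell markers summed to 16.2 to 21.3 CPM before and 21.3 to 23.8 CPM after, with 1 of 5 called higher and 1 lower. The part of these markers in the results below was not tested.

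Between unstimulated and anti-CD3 libraries, 3956 genes were called, 24.4% of those tested. Of these, 1829 (11.3%) were higher and 2127 (13.1%) were lower after stimulation. Over the alternatives tried, the number called was 2949 to 5688. A change of 2-fold or more was called for 671 higher genes (4.13%) and 650 lower genes (4.0%), and a change of 4-fold or more for 234 and 216. The median over all genes was -0.00, which the scaling sets near 0. These shares are the background against which each gene list is read below. The 3 unstimulated libraries lay entirely below the 3 stimulated ones for 22.3% of all genes and entirely above them for 23.1%.

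**Figure D1:**
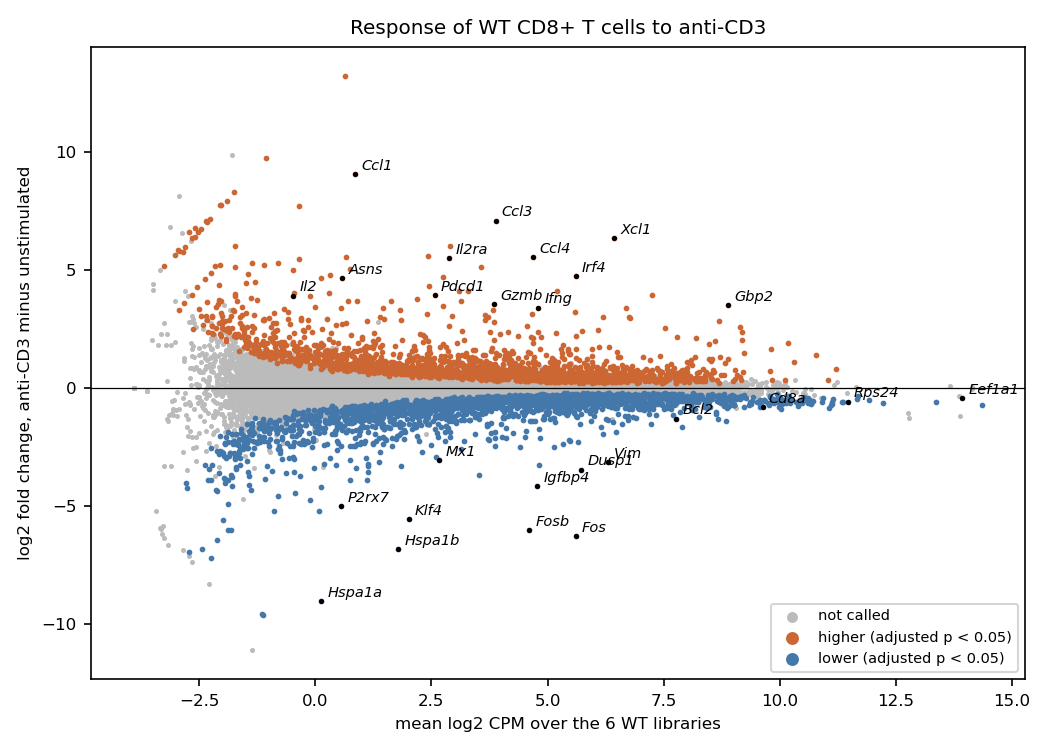
Each point is a gene tested, placed by its mean log2 CPM over the 6 WT libraries (horizontal) and its log2 fold change, anti-CD3 minus unstimulated (vertical), with called genes in colour and named genes in black. The named rises run from Ifng at 3.41 to Ccl1 at 9.07 and the named falls reach -6.25 for Fos among well expressed genes; points at the far left above 5 or below -5 have few or no counts in one group, and their fitted values depend on the prior count.

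Genes that IFN-γ induces rose widely. Of 34 such genes tested, 28 were called higher and 0 lower, 22 of them by 2-fold or more, with a median log2 fold change of 1.67 against -0.00 for all genes. Their summed level was 4927 to 5441 CPM in the unstimulated libraries and 16755 to 18147 CPM after anti-CD3, a 3.34-fold rise. Over the alternatives tried, the number called higher was 27 to 30. The promoters of 4 of them are shown here because 2 short motifs of interferon signalling lie close to their starts. The GAS motif, TTCNNNGAA, is known from genes that IFN-γ induces, and the ISRE motif, GAAA and GAAA with 2 bases of any kind between them, is the kind bound by interferon regulatory factors. Capitals mark these motifs on either strand; each sequence runs 5′ to 3′ along its gene, from 250 bases before the RefSeq start to 50 bases after it, in build GRCm38.p6.

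Gbp2: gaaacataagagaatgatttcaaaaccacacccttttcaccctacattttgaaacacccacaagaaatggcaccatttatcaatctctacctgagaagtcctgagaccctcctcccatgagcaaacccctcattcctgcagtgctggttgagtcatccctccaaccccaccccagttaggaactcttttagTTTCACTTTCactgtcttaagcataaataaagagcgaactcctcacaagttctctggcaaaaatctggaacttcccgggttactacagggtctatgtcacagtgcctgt
Igtp: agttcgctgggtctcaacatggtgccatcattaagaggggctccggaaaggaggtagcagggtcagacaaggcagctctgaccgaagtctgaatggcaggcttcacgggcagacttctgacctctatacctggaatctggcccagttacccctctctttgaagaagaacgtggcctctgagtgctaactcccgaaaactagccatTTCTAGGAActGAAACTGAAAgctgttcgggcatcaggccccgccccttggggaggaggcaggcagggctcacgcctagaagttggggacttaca
Tgtp1: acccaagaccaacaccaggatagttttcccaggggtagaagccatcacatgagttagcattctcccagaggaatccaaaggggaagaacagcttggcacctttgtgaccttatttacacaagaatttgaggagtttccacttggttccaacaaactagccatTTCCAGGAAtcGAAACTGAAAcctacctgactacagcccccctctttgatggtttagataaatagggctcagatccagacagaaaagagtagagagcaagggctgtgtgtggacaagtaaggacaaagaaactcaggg
Irf1: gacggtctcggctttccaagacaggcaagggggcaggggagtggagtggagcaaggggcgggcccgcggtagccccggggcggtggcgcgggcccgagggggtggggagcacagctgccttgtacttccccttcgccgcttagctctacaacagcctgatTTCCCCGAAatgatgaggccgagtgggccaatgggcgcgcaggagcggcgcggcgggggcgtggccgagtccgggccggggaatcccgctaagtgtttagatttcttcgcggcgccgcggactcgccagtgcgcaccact

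The Gbp2 promoter is chr3:142620413-142620712 on the plus strand, with its ISRE match beginning 59 bases upstream of the start. The Igtp promoter is chr11:58199306-58199605 on the plus strand, with a GAS match from 45 and an ISRE match from 34 bases upstream. The Tgtp1 promoter is chr11:48992197-48992496 on the minus strand, with the same order of motifs, GAS from 88 and ISRE from 77 bases upstream. Thus in both GTPase genes the motifs were separated by 2 bases and did not overlap. The Irf1 promoter is chr11:53769764-53770063 on the plus strand and held a GAS match from 90 bases upstream. Irf1, chosen after its values were seen, is shown for its motif without an ISRE. Over 25 promoters of the list, 44% held an ISRE and 36% a GAS match, against 3.09% and 6.97% of the 10094 promoters of all genes tested. The list was chosen with earlier results of these data known, and the GAS motif was added after the data were seen. Near-identical genes, such as Tgtp1 and Tgtp2, were counted separately. Such a match describes letters in the window and is not evidence of binding.

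Gbp2 (chr3:142620602-142638008), a guanylate-binding protein that attacks the membranes of intracellular pathogens, stood at 133, 141 and 148 CPM without stimulation and at 1733, 1566 and 1486 CPM after anti-CD3. All 3 stimulated libraries were about an order of magnitude above the unstimulated ones, and the change was 3.50 ± 0.16 (adjusted p = 3.45e-11). Igtp, an immunity-related GTPase, rose from 135, 167 and 160.1 CPM to 1172, 1122 and 1056 CPM, by 2.86 ± 0.16. Tgtp1, of the same GTPase class, rose from 265, 298 and 300.3 CPM to 1248, 1158 and 1166 CPM, by 2.05 ± 0.17. The groups did not overlap for any of these genes, though Tgtp1 has a near-identical copy, Tgtp2 (1.47 ± 0.15), and Igtp overlaps Irgm2, so the split of reads between the members of these pairs is uncertain. Irf1, a transcription factor that carries the IFN-γ signal onward, rose from 234, 279 and 284 CPM to 698, 649 and 631 CPM, by 1.31 ± 0.11 (adjusted p = 1.11e-07).

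Interferon-inducible GTPases held most of the 10 largest gains in CPM. Gbp4 rose from 235, 221 and 234 CPM to 1410.0, 1383 and 1346 CPM. Gvin1, a very large interferon-inducible GTPase, rose from 999, 1098 and 1162 CPM to 2893, 2829 and 2879.7 CPM, with reads possibly shared with related copies such as Gm4070. Samhd1, which breaks down deoxynucleotides and so limits viral reverse transcription, rose from 248, 274 and 246 CPM to 1382, 1317 and 1301 CPM, by 2.38 ± 0.10 (adjusted p = 8.94e-12). In every one of these genes the lowest stimulated library was above the highest unstimulated one.

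Other genes linked to IFN-γ rose as well. Whether IFN-γ drove these rises was not tested. Cd274, which encodes the PD-1 ligand PD-L1, rose from 36.4, 39.9 and 41.7 CPM to 322, 326 and 277 CPM, by 2.97 ± 0.16 (adjusted p = 4.25e-10). Cxcl10, a chemokine that draws CXCR3-bearing T cells, rose from 2.27, 1.82 and 3.00 CPM to 46.0, 36.0 and 38.1 CPM, by 4.10 ± 0.18. Irf8, a transcription factor induced by IFN-γ, rose from 5.15, 4.14 and 3.51 CPM to 35.8, 37.6 and 36.9 CPM. Wars, the tryptophanyl-tRNA synthetase that IFN-γ also induces, rose by 2.99 ± 0.14, from 33.9, 38.9 and 43.6 CPM to 336, 298 and 287 CPM. Ifngr1, the ligand-binding chain of the IFN-γ receptor, rose from 167, 197 and 185 CPM to 364, 392 and 402 CPM. Socs1, the feedback inhibitor of the JAK kinases, rose by 1.90 ± 0.15. Of the 13 genes of MHC class I and its peptide loading, 5 were called higher and 0 lower, with a median of 0.33; 8 were higher without 2 KO libraries, unstimulated replicate 2 and replicate 3 with both antibodies. Among them H2-T23, a non-classical class I gene, rose by 0.98 ± 0.16, and Tap1, Tapbp and the class I transactivator Nlrc5 rose by 0.77 ± 0.15, 0.66 ± 0.14 and 0.54 ± 0.11.

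Genes known best as targets of type I interferon behaved differently from one another. Of 28 tested, 4 were called higher and 10 lower, 7 of the latter by 2-fold or more, and the median was -0.19. Their summed level was 1278 to 1390 CPM before and 1422 to 1482 CPM after stimulation. Mx1 (chr16:97447035-97462907), a dynamin-like antiviral GTPase, fell from 15.98, 19.7 and 18.7 CPM to 2.90, 2.17 and 1.61 CPM, by 3.05 ± 0.23 on the log2 scale (adjusted p = 3.14e-08). Its relative Mx2 went from 2.63, 3.46 and 4.24 CPM to 0.398, 0.853 and 0.525 CPM, and the antiviral RNA sensor Oas2 from 5.77, 8.97 and 8.60 CPM to 2.62, 1.73 and 3.04 CPM. All 3 were lower in every stimulated library than in any unstimulated one. Rsad2, the antiviral enzyme viperin, fell from 7.20, 10.6 and 9.51 CPM to 2.90, 3.23 and 3.29 CPM, by 1.53 ± 0.27. Ifit1, an antiviral RNA-binding protein chosen after its values were seen, fell from 35.3, 43.3 and 37.3 CPM to 24.6, 21.0 and 24.6 CPM, by 0.72 ± 0.16. The promoters of Rsad2 and Ifit1 are printed because they carry the ISRE letters in the same window, and yet their transcripts moved opposite to those of the GTPases above.

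Rsad2: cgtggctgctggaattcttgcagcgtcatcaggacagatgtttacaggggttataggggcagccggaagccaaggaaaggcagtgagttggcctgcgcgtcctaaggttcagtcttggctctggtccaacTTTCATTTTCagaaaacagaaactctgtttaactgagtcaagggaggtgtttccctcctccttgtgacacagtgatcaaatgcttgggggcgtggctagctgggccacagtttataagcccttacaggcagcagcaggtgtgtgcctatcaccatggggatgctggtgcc
Ifit1: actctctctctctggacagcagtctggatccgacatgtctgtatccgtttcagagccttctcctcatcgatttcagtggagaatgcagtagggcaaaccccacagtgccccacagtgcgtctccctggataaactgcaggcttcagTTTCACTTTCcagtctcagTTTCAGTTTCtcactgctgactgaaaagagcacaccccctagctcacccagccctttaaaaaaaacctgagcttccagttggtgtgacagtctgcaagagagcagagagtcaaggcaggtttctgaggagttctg

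The Rsad2 promoter is chr12:26456403-26456702 on the minus strand and held an ISRE match, in capitals, from 120 bases upstream of the start. The Ifit1 promoter is chr19:34640639-34640938 on the plus strand and held ISRE matches from 104 and 85 bases upstream. Both were read on the opposite strand, as in Gbp2. Over 20 promoters of the type I list, 55% held an ISRE and 20% a GAS match. The 4 genes of this list that were called higher included Zbp1, a sensor of viral nucleic acid, which rose by 1.301 ± 0.099, Ifit3, by 0.94 ± 0.16, and Stat2, by 0.92 ± 0.15. Over the alternatives tried 3 to 7 genes of this list were called higher and 8 to 13 lower.

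**Figure D2:**
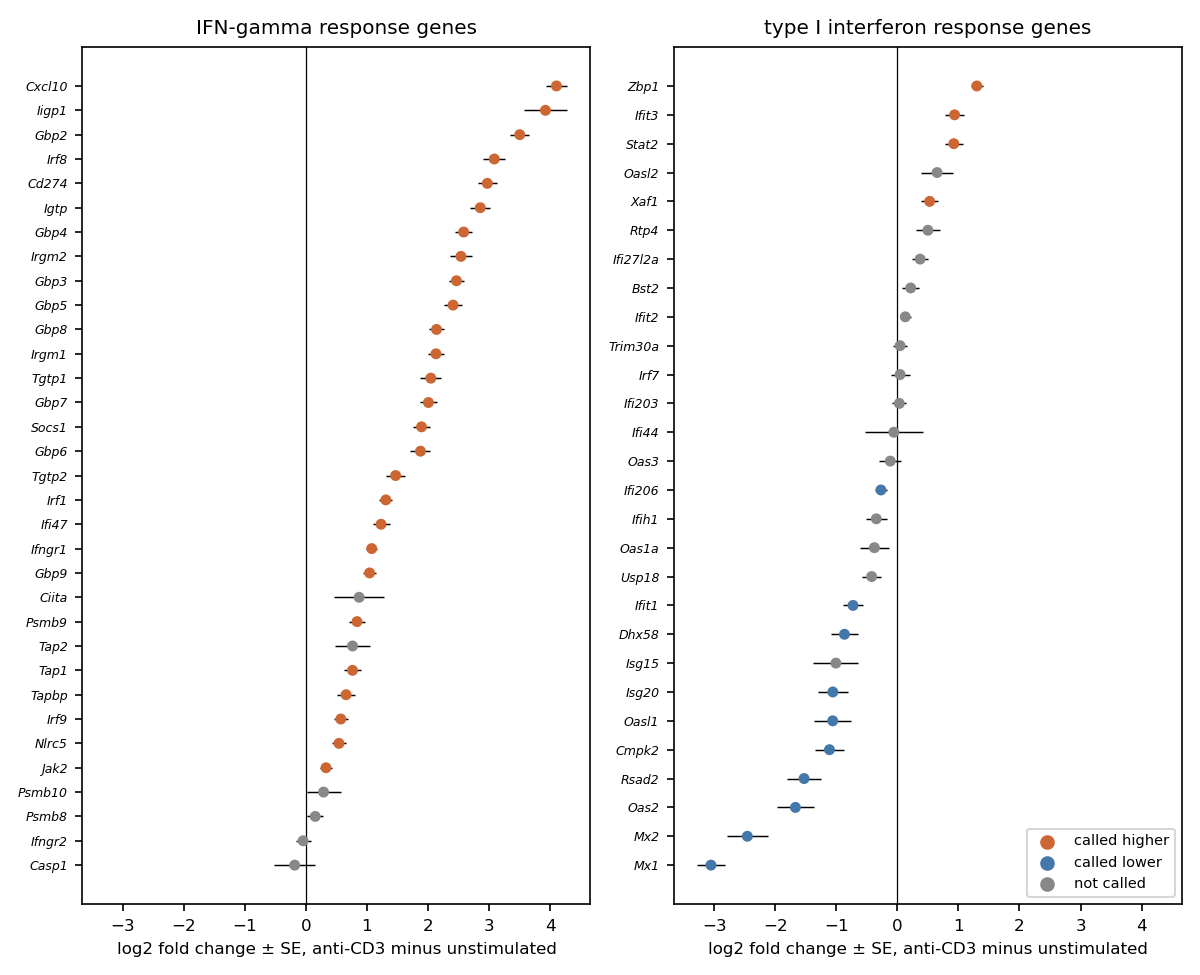
Log2 fold change, anti-CD3 minus unstimulated, with its standard error, for 33 of the 34 IFN-γ response genes (left) and the 28 type I interferon response genes (right) tested in WT cells; colour gives the call. On the left 27 of the 33 genes drawn are called higher and 0 lower; on the right 4 are higher and 10 lower, from Zbp1 at 1.301 down to Mx1 at -3.05.

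Chemokines had the highest median of the lists examined, 5.79. Of 8 tested, 6 were called higher, all by 2-fold or more, and 1 lower, and their summed level went from 62.3 to 78.8 CPM to 1267 to 1321 CPM, an 18.3-fold rise. Xcl1 (chr1:164931644-164935527), lymphotactin, which draws cross-presenting dendritic cells, held most of that sum: 9.08, 10.8 and 8.94 CPM without stimulation and 806, 797 and 740.1 CPM with it. The groups stood far apart, and the rise was 6.34 ± 0.19 (adjusted p = 3.48e-13). Ccl3 (chr11:83647844-83649355) and Ccl4 (chr11:83662584-83664683), the macrophage inflammatory proteins, are neighbours in the genome. Ccl3 rose from 1.13, 1.37 and 1.19 CPM to 168, 164 and 172 CPM, by 7.09 ± 0.31. Ccl4 rose from 3.24, 4.14 and 3.79 CPM to 177, 178 and 169.5 CPM, by 5.56 ± 0.18. Per kilobase of exon, the mean level after stimulation was 1493 CPM for Xcl1, 265 for Ccl4 and 219 for Ccl3, so the order of levels differed from the order of changes. Ccl9 rose by 6.02 ± 0.47 and was chosen after its values were seen. Ccl1, a ligand of CCR8, had 1, 3 and 0 counts in the unstimulated libraries and 589, 970 and 980 in the stimulated ones, a ratio of 559.6 after scaling to library size (95% exact interval 218.3 to 2056, counting error only). Ccl5, stored as message in memory CD8 cells, went the other way, from 43.4, 58.4 and 50.4 CPM to 27.4, 28.5 and 42.0 CPM, a fall by 0.63 ± 0.16, with stimulated replicate 3 close to the lowest unstimulated library.

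T cell cytokines rose as well, with 7 of 12 called higher, all by 2-fold or more, 1 lower and a median of 2.19. Ifng, which encodes IFN-γ itself, stood at 6.64, 8.93 and 10.2 CPM before and 97.4, 85.5 and 87.7 CPM after stimulation, a rise of 3.41 ± 0.33 (adjusted p = 4e-06). Every stimulated library was more than 8-fold above every unstimulated one. Tnf, which encodes tumour necrosis factor, rose from 15.3, 23.2 and 20.4 CPM to 49.3, 60.7 and 42.7 CPM, by 1.38 ± 0.18, and the linked gene Lta rose by 1.91 ± 0.25. Il2, the T cell growth factor, remained scarce: it had 1, 10 and 2 counts before and 31, 136 and 74 counts after stimulation, a ratio of 16.34 (95% exact interval 9.379 to 31.14, counting error only). Csf2, which encodes the myeloid growth factor GM-CSF, had 10, 6 and 1 counts before and 29, 43 and 30 after. Osm, oncostatin M, was the 1 cytokine called lower, from 9.27, 13.1 and 13.5 CPM to 6.998, 6.33 and 6.33 CPM. Il4, Il5, Il13, Il17a, Il21 and Il22 had too few counts to test. Of 8 ligands of the TNF family, 5 were called higher and 1 lower. Tnfsf14 (LIGHT), a costimulatory ligand, rose from 4.67, 7.41 and 5.88 CPM to 33.1, 30.8 and 28.6 CPM, and Tnfsf11 (RANKL) rose by 3.02 ± 0.32. Tnfsf10 (TRAIL), a death ligand, fell from 55.7, 57.7 and 55.6 CPM to 29.8, 28.8 and 32.6 CPM.

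**Figure D3:**
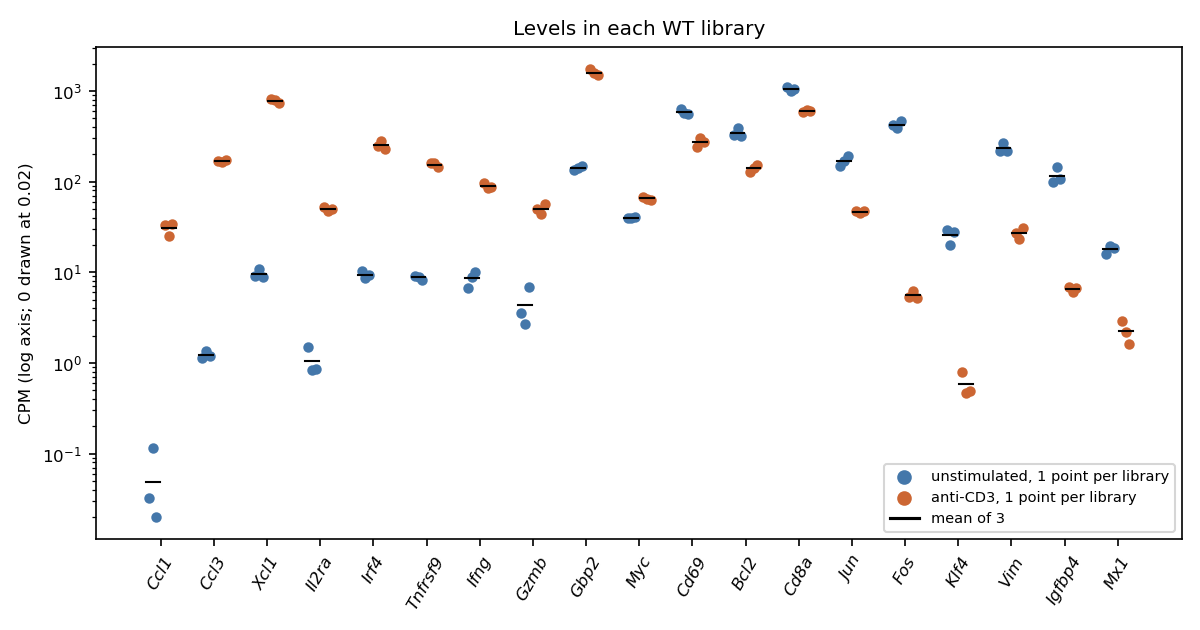
CPM on a log axis of 19 genes in each of the 6 WT libraries (blue, unstimulated; orange, anti-CD3; bar, mean of 3), with a value of 0 drawn at 0.02. The groups are separate for all 19 genes, which were picked as examples. Xcl1 is near 9 to 11 CPM without and 740.1 to 806 CPM with anti-CD3. Fos is at 394 to 466 CPM without and 5.18 to 6.15 CPM with it.

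The genes that TCR signals switch on within hours split into rising and falling sets: of 25 tested, 11 were called higher, 9 of them by 2-fold or more, and 9 lower, 7 of them by 2-fold or more. Irf4 (chr13:30749226-30766976), a transcription factor whose amount follows TCR strength, rose from 10.3, 8.71 and 9.22 CPM to 246, 283 and 231 CPM, by 4.75 ± 0.16 (adjusted p = 7.18e-13). Nr4a3 and Nr4a1, orphan nuclear receptors used as reporters of TCR signal, rose by 3.14 ± 0.16 and 1.09 ± 0.19. Nr4a3 went from 9.17, 7.49 and 8.996 CPM to 77.0, 77.1 and 71.5 CPM, whereas Nr4a1 was already variable in unstimulated cells, at 19.7, 21.9 and 37.3 CPM, and reached 55.9, 62.0 and 48.5 CPM. Egr2, a zinc finger factor that also restrains T cells, rose from 9.08, 8.40 and 10.98 CPM to 59.6, 59.6 and 56.4 CPM. Outside that list, Rel, the NF-κB subunit induced in activated lymphocytes, rose from 43.8, 36.5 and 35.9 CPM to 98.9, 99.9 and 98.4 CPM. Myc, the transcription factor of growth, rose more modestly, from 39.9, 39.3 and 40.4 CPM to 68.5, 63.9 and 63.2 CPM, by 0.71 ± 0.12. No stimulated library of these genes fell within the unstimulated range.

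The falling set held AP-1 genes, and genes of other lists fell with them. Fos (chr12:85473890-85477273) stood at 419.5, 394 and 466 CPM without stimulation and at 5.35, 6.15 and 5.18 CPM after 12 h of anti-CD3, a fall by 6.25 ± 0.18 on the log2 scale (adjusted p = 3.48e-13). Fosb fell from 184, 183 and 244 CPM to 1.76, 3.85 and 3.53 CPM, and Jun, the AP-1 partner of both, from 149, 171 and 191 CPM to 47.5, 44.9 and 47.4 CPM. These genes were high in all 3 unstimulated libraries and low in all 3 stimulated ones. Dusp1, a phosphatase that switches off MAP kinases, fell from 173, 165 and 187 CPM to 16.8, 14.96 and 16.3 CPM, by 3.45 ± 0.13. Klf4, a factor of T cell quiescence, fell from 29.3, 19.9 and 27.9 CPM to 0.797, 0.465 and 0.490 CPM, by 5.53 ± 0.26. Cd69, the early activation antigen that keeps T cells in lymphoid tissue, fell from 638, 571 and 552 CPM to 242, 301 and 273 CPM, by 1.11 ± 0.20. Tnfaip3, which encodes the NF-κB inhibitor A20, fell from 389.9, 369 and 517 CPM to 131, 141 and 136 CPM. Ddit4, a stress-induced inhibitor of mTORC1, fell by 2.43 ± 0.19. Among 10 dual-specificity phosphatases, 3 were called higher and 5 lower: Dusp4 rose by 2.15 ± 0.18, while Dusp2, Dusp6 and Dusp10 fell by 0.90 ± 0.11, 0.74 ± 0.14 and 0.75 ± 0.11.

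Of 29 negative regulators of receptor signalling, 4 were called higher and 6 lower, beside 11.3% and 13.1% over all genes. Another 19 were not called, and the median was -0.10. The number lower was 5 to 12 over the alternatives, 12 with only the groups compared and 10 without the 2 KO libraries named above. The number higher was 2 without stimulated replicate 1, stimulated replicate 2 or unstimulated replicate 1. Spry1, an inhibitor of the Ras-ERK pathway, rose from 2.20, 1.90 and 1.98 CPM to 34.8, 38.2 and 32.4 CPM, by 4.11 ± 0.14 (adjusted p = 7.18e-13). Outside that list, Rgs16, a regulator that shortens chemokine receptor signals, rose from 1.43, 2.39 and 2.26 CPM to 65.9, 78.6 and 61.5 CPM, by 5.11 ± 0.20, whereas its relative Rgs2 fell from 90.0, 75.7 and 87.6 CPM to 12.0, 16.1 and 16.2 CPM. Cblb, the gene the study deleted in its other arm, rose slightly, from 159.7, 139.6 and 147 CPM to 190.1, 180.4 and 190.0 CPM, by 0.33 ± 0.08. The transmembrane adaptors Sit1, Pag1 and Lax1 fell by 1.89 ± 0.14, 0.90 ± 0.08 and 0.86 ± 0.10. Sit1 went from 35.3, 39.6 and 34.9 CPM to 10.01, 10.7 and 9.03 CPM, with no overlap.

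Il2ra (chr2:11642807-11693193), the high-affinity IL-2 receptor chain CD25, stood at 1.49, 0.836 and 0.849 CPM before and 51.9, 46.9 and 50.3 CPM after stimulation, a rise of 5.50 ± 0.28 (adjusted p = 8.09e-10). Tnfrsf9, the costimulatory receptor 4-1BB, rose from 9.17, 8.90 and 8.32 CPM to 159, 159 and 144 CPM, by 4.13 ± 0.13. Il12rb2, the signalling chain of the IL-12 receptor, rose from 1.49, 1.22 and 0.905 CPM to 21.7, 13.4 and 15.7 CPM. In each case every stimulated library was more than 8-fold above every unstimulated one. Of 15 costimulatory receptors 8 were called higher and 3 lower; Slamf1 rose by 2.38 ± 0.17 and Tnfrsf4 (OX40) by 1.12 ± 0.22, while Slamf6 fell by 0.44 ± 0.10 and Cd2 by 0.80 ± 0.08. Cd28 itself stood at 219, 221 and 230.3 CPM before and 234, 258 and 241 CPM after, a difference of 0.13 ± 0.11 that was not called (adjusted p = 0.46). Of 22 interleukin and related receptors 8 were called higher and 7 lower, the former being 5 without unstimulated replicate 1. Il1rl1, the IL-33 receptor, rose by 2.92 ± 0.34, and Il21r, Il18rap and Ifnar2 fell by 0.62 ± 0.11, 0.64 ± 0.14 and 0.58 ± 0.09. Of 20 genes induced by IL-2 and STAT5, 8 were called higher and 5 lower, the latter being 3 without stimulated replicate 2, stimulated replicate 3, unstimulated replicate 2 or unstimulated replicate 3. Pim2, a survival kinase, rose from 44.5, 62.0 and 49.8 CPM to 122, 109.8 and 112 CPM.

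Inhibitory receptors did not move as a block. Of 17 genes of inhibitory receptors and exhaustion, 8 were called higher and 5 lower. Pdcd1 (PD-1) rose from 1.20, 1.48 and 1.87 CPM to 19.9, 27.6 and 20.6 CPM, by 3.94 ± 0.18 (adjusted p = 6.24e-11). Lag3, a receptor for MHC class II, rose from 0.519, 0.570 and 0.622 CPM to 1.88, 2.82 and 2.31 CPM. Btla and Cd96, inhibitory receptors of resting T cells, fell, the former from 126, 115 and 87.8 CPM to 62.5, 64.4 and 64.6 CPM and the latter by 0.87 ± 0.12. Tox, a chromatin factor of exhausted T cells, fell from 30.3, 27.3 and 26.4 CPM to 12.3, 12.3 and 14.8 CPM. Ctla4 stood at 9.66, 8.59 and 12.7 CPM before and 10.8, 15.2 and 11.9 CPM after, a difference of 0.31 ± 0.16 that was not called (adjusted p = 0.188).

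Of 16 cytotoxic granule genes, 6 were called higher and 6 lower, with a median of -0.19. Gzmb, the granzyme that triggers caspases in target cells, rose from 3.60, 2.70 and 6.90 CPM to 50.4, 43.9 and 56.5 CPM, by 3.56 ± 0.45 (adjusted p = 7.67e-05). The serpins that protect the killer cell from its own granzyme, Serpinb9 and Serpinb6b, rose by 1.66 ± 0.22 and 1.57 ± 0.25. Prf1, which encodes perforin, stood at 71.0, 65.8 and 63.2 CPM before and 73.3, 59.4 and 63.9 CPM after, with overlapping groups and a difference of -0.03 ± 0.12 that was not called. Gzmm fell from 6.09, 8.86 and 8.83 CPM to 2.05, 1.19 and 2.13 CPM, and the granule proteins Nkg7, Ctsw and Cst7 fell by 1.45 ± 0.14, 1.10 ± 0.13 and 0.94 ± 0.11. Nkg7 is also counted among the NK cell markers, whose summed level was lower after stimulation, and their part in these falls was not tested.

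Of 28 genes of the T cell receptor complex and its proximal signalling, 14 were called lower, 0 higher and 14 neither, against 13.1% lower among all genes. Over the alternatives 10 to 19 were called lower, the lowest count being without stimulated replicate 2. The median was -0.28, and the summed level was 11625 to 12163 CPM before and 8838 to 9070 CPM after stimulation. Cd8a, the coreceptor, fell from 1103, 1010.0 and 1039.9 CPM to 588, 609.5 and 605 CPM, by 0.81 ± 0.08 (adjusted p = 7.89e-07). Its partner Cd8b1 fell from 777, 796 and 821 CPM to 457, 441 and 457 CPM, and Cd3g, a chain of the CD3 module itself, from 499, 467 and 454 CPM to 266, 279 and 276 CPM. The groups were separate for all 3. Themis, an adaptor that sets TCR sensitivity in thymocytes, fell by 1.02 ± 0.12, and the receptor constant gene Trac fell by 0.54 ± 0.07. Within the calcium and NFAT pathway, 1 of 19 was called higher and 6 lower. The former was 0 without stimulated replicate 2, unstimulated replicate 1 or unstimulated replicate 2, and the latter 3 without stimulated replicate 2 or unstimulated replicate 1. Its members Itpkb, Ppp3cc and Ppp3ca fell by 0.73 ± 0.14, 0.41 ± 0.08 and 0.36 ± 0.09; the last pair are catalytic subunits of calcineurin.

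Of 24 homing and egress receptors, which guide T cells through tissue, 1 was called higher and 12 lower, 5 of the latter by 2-fold or more, with a median of -0.47. Itgae, the integrin CD103 of epithelial retention, fell from 119.7, 126 and 114 CPM to 46.1, 51.6 and 47.5 CPM. Ccr9, the gut homing receptor, fell from 199, 157 and 202 CPM to 75.4, 81.5 and 75.0 CPM, by 1.27 ± 0.12. Gpr183, which positions lymphocytes along oxysterol gradients, fell from 114, 107 and 106 CPM to 60.4, 62.4 and 65.8 CPM. P2rx7, a receptor for extracellular ATP, had 259, 231 and 180 counts before and 1, 21 and 3 after, a ratio of 30.4 after scaling (95% exact interval 20.41 to 47.31, counting error only). S1pr1, the receptor for lymph node exit, stood at 730.3, 678 and 688 CPM before and 662, 660.0 and 647 CPM after and was not called (-0.09 ± 0.08, adjusted p = 0.454).

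Of 30 genes of the naive and quiescent state, 8 were called higher and 13 lower. Foxo1, the transcription factor that maintains naive T cells, fell from 166, 130.4 and 145 CPM to 85.3, 68.2 and 86.4 CPM, by 0.88 ± 0.11. Txnip, an inhibitor of glucose uptake, fell from 977, 1054 and 972 CPM to 569, 539 and 624 CPM, and Tsc22d3, the glucocorticoid-induced leucine zipper, fell by 0.87 ± 0.12. Tcf7, which encodes TCF-1, stood at 591, 572 and 553 CPM before and 533, 484 and 519 CPM after and was not called (-0.16 ± 0.11, adjusted p = 0.301). Bach2, a repressor that holds back effector genes, rose from 82.2, 79.4 and 82.3 CPM to 168, 150.5 and 150.2 CPM, and the Schlafen genes Slfn1 and Slfn2, also known as interferon-inducible, rose by 1.11 ± 0.09 and 0.75 ± 0.09. Bcl2, the survival gene of resting lymphocytes, fell from 329, 387 and 317 CPM to 127, 141 and 154 CPM, by 1.29 ± 0.13. In the same family Bcl2l1 (Bcl-xL) rose from 6.22, 8.48 and 7.47 CPM to 12.5, 12.3 and 13.2 CPM, and Bcl2a1b rose by 2.12 ± 0.18, with reads possibly shared with its near-identical copies. Of the 24 genes of the NF-κB pathway and its targets, 14 were called higher and 2 lower, with a median of 0.70 and 12 to 17 higher over the alternatives.

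Among effector and memory transcription factors 8 of 28 were called higher and 6 lower. Bcl6, a repressor of effector differentiation, rose from 11.8, 8.86 and 12.2 CPM to 35.7, 33.4 and 29.5 CPM, by 1.58 ± 0.16. Id2, an inhibitor of E proteins used by effector cells, fell from 82.7, 74.1 and 74.5 CPM to 31.3, 39.4 and 37.7 CPM, by 1.09 ± 0.12. Tbx21, which encodes the type 1 master regulator T-bet, stood at 12.8, 19.2 and 16.01 CPM before and 19.5, 15.9 and 16.3 CPM after, with overlapping groups and no call. Cd44, a marker of antigen experience, stood at 66.9, 68.5 and 56.01 CPM before and 52.5, 46.1 and 60.7 CPM after and was not called either (adjusted p = 0.207).

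Some of the strongest falls lay outside these lists. Igfbp4 (chr11:99041244-99054392), which encodes a binding protein for insulin-like growth factors, fell from 98.4, 144 and 106 CPM to 6.88, 6.00 and 6.65 CPM, by 4.16 ± 0.16 (adjusted p = 5.05e-12). Vim, the intermediate filament vimentin, fell from 216, 268 and 218 CPM to 26.9, 23.4 and 30.5 CPM, by 3.12 ± 0.16. Dtx1, an E3 ligase of Notch signalling, fell from 69.7, 88.5 and 105 CPM to 9.79, 8.61 and 9.23 CPM. The 3 stimulated libraries agreed closely in each of these genes. Their separation from the unstimulated ones was a condition of choosing such genes. Slc16a5, a monocarboxylate transporter family member, fell by 3.66 ± 0.13, and Slfn5, Sema4a and Adgrg5 fell by 2.26 ± 0.20, 2.25 ± 0.15 and 2.39 ± 0.16. Among cytoskeletal genes, 6 of 22 were called higher and 8 lower: Capg, an actin filament capping protein, rose by 2.79 ± 0.17 and the tubulin Tuba1b by 0.69 ± 0.10, whereas Cfl1, cofilin, fell by 0.68 ± 0.09. Actb, β-actin, often taken as a reference gene, fell from 4281, 4941 and 4709 CPM to 3448, 3359 and 3117 CPM, and Tmsb4x, the actin monomer binder thymosin β4, from 2933, 2856 and 2764 CPM to 1515, 1616 and 1699 CPM.

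Of 22 genes of amino acid transport and the ATF4 response, which cells mount when amino acids are short or demand is high, 12 were called higher and 2 lower, with a median of 0.43. Asns, asparagine synthetase, showed the widest change of the list, and its promoter is shown with the C/EBP-ATF motif, TGATGNAA, in capitals, the kind of composite site that ATF4 binds.

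Asns: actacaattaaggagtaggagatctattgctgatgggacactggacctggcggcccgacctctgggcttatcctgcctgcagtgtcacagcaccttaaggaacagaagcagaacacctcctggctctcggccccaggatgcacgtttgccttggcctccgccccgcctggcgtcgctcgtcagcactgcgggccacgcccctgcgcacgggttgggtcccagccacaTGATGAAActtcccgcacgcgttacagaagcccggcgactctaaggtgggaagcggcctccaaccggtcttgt

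This promoter is chr6:7693160-7693459 on the minus strand, and the match begins 23 bases upstream of the RefSeq start in build GRCm38.p6. Of 18 promoters of the list 27.8% held the motif, those of Asns, Slc1a4, Chac1, Slc7a11 and Trib3, against 2.28% of all 10094. Asns stood at 0.292, 0.228 and 0.283 CPM before and 5.80, 6.49 and 7.91 CPM after stimulation, a rise of 4.64 ± 0.34 (adjusted p = 2.25e-08). Slc7a5, the large neutral amino acid transporter LAT1, rose from 22.7, 32.4 and 25.0 CPM to 53.8, 55.9 and 44.9 CPM, and Slc1a4, a carrier of serine and alanine, rose by 1.74 ± 0.31. Psat1, an enzyme of serine synthesis, rose from 22.9, 28.17 and 22.6 CPM to 49.2, 44.9 and 47.3 CPM. Slc38a2, a glutamine carrier, was 1 of the 2 called lower, from 329.8, 337 and 317 CPM to 252, 240.0 and 244 CPM, along with Ddit4. Of 20 enzymes that charge tRNAs, 12 were called higher and 1 lower, with 9 to 16 higher over the alternatives and 0 lower without any of the stimulated libraries or without unstimulated replicate 2 or 3. After Wars, the members Cars, Aars and Iars rose by 0.96 ± 0.16, 0.90 ± 0.13 and 0.71 ± 0.10.

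Of 30 factors that assemble ribosomes, 11 were called higher and 0 lower, but the count was 6 without stimulated replicate 1, 7 without stimulated replicate 2 and 5 without unstimulated replicate 1, and 20 without the 2 KO libraries. Nop16 rose from 12.1, 17.2 and 16.4 CPM to 31.3, 30.4 and 26.7 CPM, and the nucleolar proteins Nop2, Wdr12 and Nolc1 rose by 0.76 ± 0.14, 0.64 ± 0.11 and 0.55 ± 0.10. Of 32 cytosolic ribosomal proteins, 0 were called higher and 20 lower, with a median of -0.43 and 15 to 26 lower over the alternatives. Their summed level fell from 40058 to 46469 CPM before to 30512 to 31153 CPM after stimulation. Rps24 fell from 3478, 3636 and 3232 CPM to 2177, 2351 and 2439.9 CPM, by 0.57 ± 0.08, and Rpl30 fell by 0.74 ± 0.10. The elongation factor Eef1a1, among the most abundant messages, fell from 17474, 19270.0 and 17406 CPM to 13119, 14060.0 and 13497 CPM. Ribosomal protein genes and Eef1a1 have many processed pseudogenes, so the authors' counting may have split some of their reads. Eif5a, a translation factor that needs hypusine made from spermidine, rose from 139.7, 175 and 157 CPM to 307, 288 and 260.0 CPM, by 0.86 ± 0.10, and Srm, spermidine synthase, rose from 9.20, 12.1 and 12.8 CPM to 34.8, 31.8 and 29.3 CPM, by 1.498 ± 0.172. Pdcd4, an inhibitor of translation initiation, fell by 0.79 ± 0.09.

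Of 27 nuclear genes for mitochondrial ribosomes and protein import, 11 were called higher and 0 lower, and 8 to 17 were higher over the alternatives. Hspd1, the mitochondrial chaperonin, rose from 177, 194 and 174 CPM to 408, 429 and 403 CPM, by 1.19 ± 0.20, and Tomm40, the outer membrane import pore, rose by 0.85 ± 0.16. Of the 13 genes encoded by mitochondrial DNA, 0 were called higher and 4 lower, with a median of -0.56, and 10 were lower without the 2 KO libraries. Their summed level was 16424 to 20249 CPM before and 11414 to 12904 CPM after. mt-Co1, a subunit of cytochrome oxidase, fell from 14390.0, 13167 and 11765 CPM to 8060.5, 9182 and 8874 CPM, by 0.59 ± 0.12. In the nucleus the genes of oxidative phosphorylation gave 1 of 26 higher and 1 lower, with 0 higher when any of the 6 WT libraries was left out and 2 lower without the 2 KO libraries. Of 25 genes of the tricarboxylic acid cycle 1 was called higher and 5 lower. The number higher was 0 without any of the stimulated libraries or without unstimulated replicate 1 or 3, and 2 without the 2 KO libraries. Pdha1, of the pyruvate dehydrogenase complex, fell by 0.50 ± 0.09.

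Of 30 genes of cholesterol and fatty acid synthesis, 11 were called higher and 2 lower, with 10 to 15 higher over the alternatives. Idi1 and Cyp51, of the sterol pathway, rose from 29.1, 25.2 and 25.3 CPM to 63.3, 77.8 and 76.3 CPM and from 28.7, 27.9 and 24.2 CPM to 72.1, 74.0 and 73.6 CPM, while the fatty acid desaturase Scd2 fell by 1.38 ± 0.13. Of 27 genes of one-carbon and nucleotide synthesis 8 were called higher and 2 lower, the former being 5 without stimulated replicate 1 or unstimulated replicate 1. Shmt1, which moves 1 carbon from serine to folate, rose from 14.2, 16.6 and 17.9 CPM to 50.2, 53.2 and 47.6 CPM, by 1.63 ± 0.14. Of 22 genes of glycolysis and glucose uptake 3 were called higher and 4 lower, shares near those over all genes. The number lower was 2 without stimulated replicate 1, stimulated replicate 2 or unstimulated replicate 2. The number higher was 5 without the 2 KO libraries. The glycolytic enzyme hexokinase 2, Hk2, stood out among the 22 genes, at 3.01, 1.98 and 3.00 CPM before and 22.4, 23.5 and 20.8 CPM after, a rise of 3.07 ± 0.18. Tfrc, the transferrin receptor that brings in iron, rose from 112, 108 and 105 CPM to 261, 290.4 and 273 CPM. Proteasome subunits were called higher in 13 of 26 and lower in 0, falling to 7 without stimulated replicate 1 or unstimulated replicate 1; Psma7 and Psme3 rose by 0.67 ± 0.10 and 0.66 ± 0.11.

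Of 23 heat shock genes tested, 11 were called higher, 3 lower and 9 neither, with 8 to 17 higher over the alternatives. Hsph1, an exchange factor of HSP70, rose from 70.4, 83.5 and 78.3 CPM to 120.5, 104 and 109 CPM, and the HSP90 cochaperones Fkbp4 and Stip1 rose by 0.59 ± 0.13 and 0.58 ± 0.11. Hspa1a, the inducible HSP70, had 290, 670 and 143 counts in the unstimulated libraries and 1, 0 and 1 in the stimulated ones, a ratio of 625.5 after scaling (95% exact interval 172.8 to 5172, counting error only). Its near-identical copy Hspa1b fell from 28.0, 55.1 and 21.3 CPM to 0.284, 0.336 and 0.280 CPM, and reads cannot be assigned between them with certainty. The HSP40 gene Dnajb1 fell from 138, 182 and 145 CPM to 69.5, 68.7 and 64.5 CPM. Of 22 genes of endoplasmic reticulum stress and secretion, 6 were called higher and 6 lower: Pdia6, a protein disulfide isomerase, rose by 0.71 ± 0.11 and Dnajb9, a cochaperone, fell by 1.54 ± 0.20.

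Cell division genes changed in only some members at 12 h. Of 30 DNA replication genes, 8 were called higher and 0 lower, with a median of 0.20, but 2, 4 and 3 were higher without stimulated replicates 1, 2 and 3, and 3, 5 and 4 without unstimulated replicates 1, 2 and 3. Mcm5, a subunit of the replicative helicase, rose from 36.3, 39.8 and 35.5 CPM to 64.2, 57.6 and 56.4 CPM, by 0.67 ± 0.11. Of 25 mitosis genes, 1 was called higher and 5 lower, with a median of -0.52; the number lower was 2 without stimulated replicate 1 or stimulated replicate 2 and 3 without unstimulated replicate 2, and 8 without the 2 KO libraries. Mki67, the proliferation antigen, fell from 35.6, 28.5 and 23.3 CPM to 13.7, 9.02 and 15.9 CPM, by 1.19 ± 0.27 (adjusted p = 0.00472), and Kif23, a kinesin of cytokinesis, fell by 1.62 ± 0.13. Of 21 genes of the G1 phase 2 were called higher and 4 lower, shares near those over all genes. Rbl1, a pocket protein, rose from 93.8, 94.9 and 92.1 CPM to 156, 158 and 157 CPM, while the CDK inhibitor Cdkn2d fell from 28.7, 35.9 and 34.3 CPM to 15.2, 16.02 and 16.7 CPM. Cdk6, a kinase of G1 entry, stood at 53.5, 53.9 and 41.9 CPM before and 46.3, 47.8 and 48.2 CPM after, with overlapping groups and no call.

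**Figure D4:**
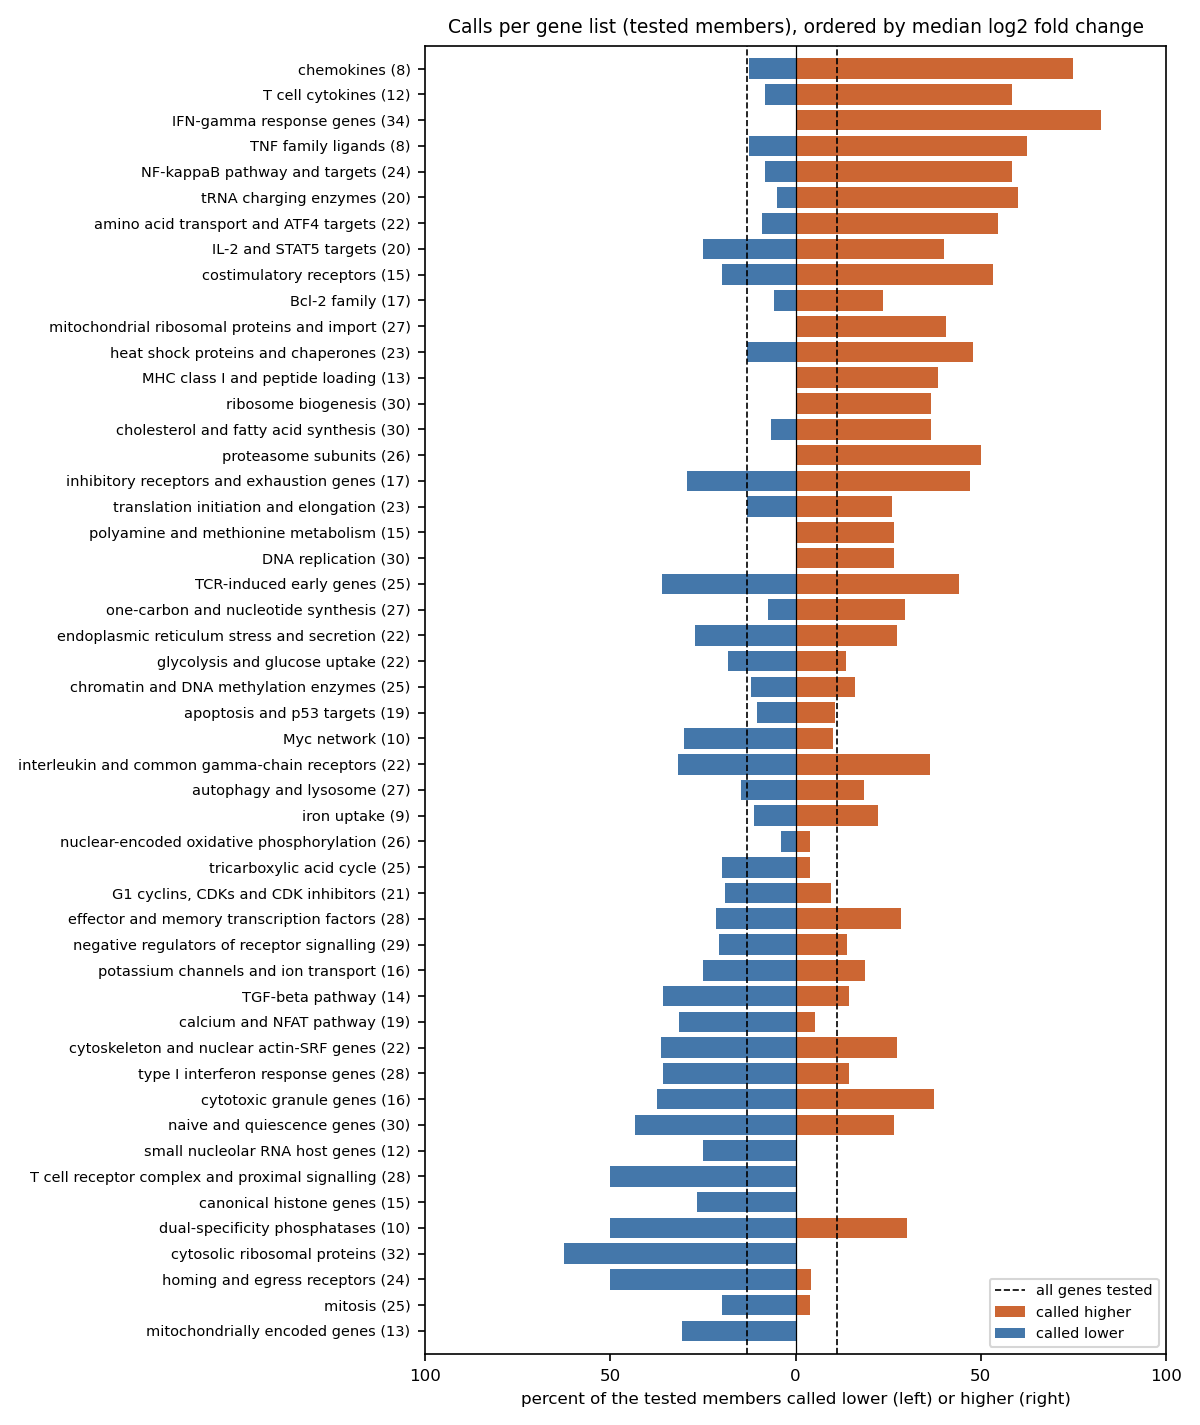
Percent of the tested members of each gene list (number tested in brackets) called higher (right) or lower (left) after anti-CD3 in WT cells, ordered by the list's median log2 fold change; dashed lines give the shares over all genes tested, 11.3% higher and 13.1% lower. Chemokines, cytokines and IFN-γ response genes are at the top, with 6 of 8, 7 of 12 and 28 of 34 called higher, and ribosomal proteins, with 20 of 32 called lower, are near the bottom.

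**Figure D5:**
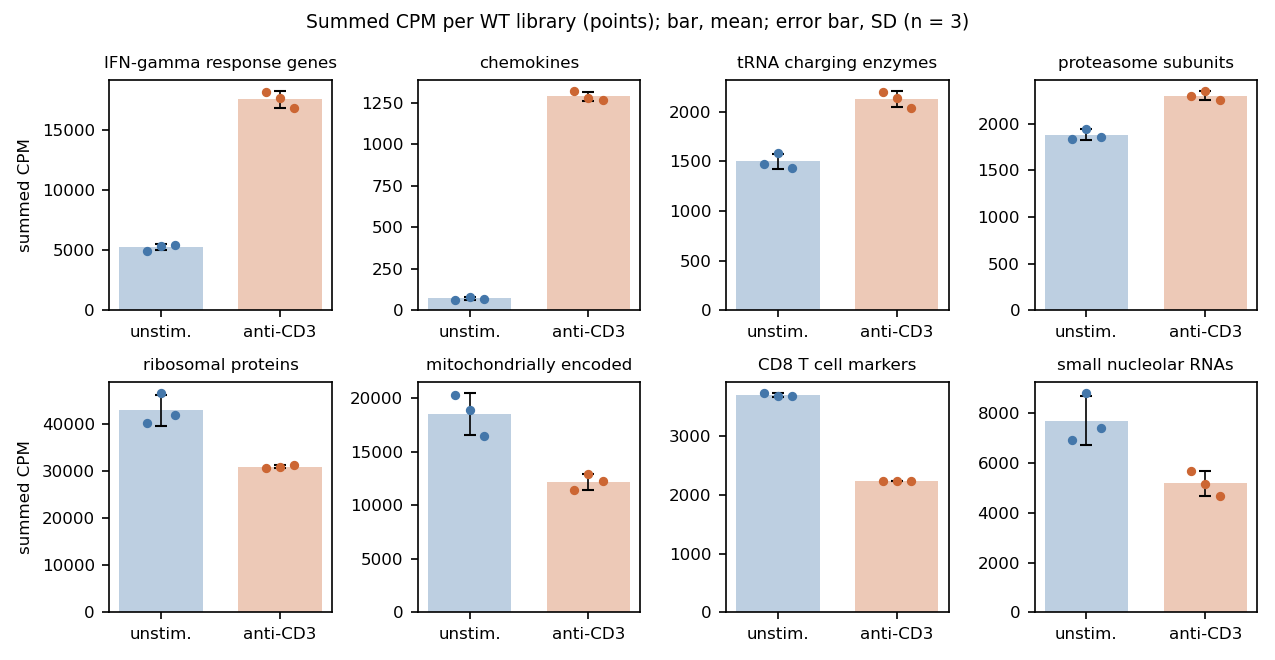
Summed CPM of 8 groups of genes in each of the 6 WT libraries (points), with the mean of each group of libraries as a bar and the SD as an error bar (n = 3), on axes that start at 0. The unstimulated and stimulated libraries are separate for all 8 groups: the IFN-γ response genes, chemokines, tRNA charging enzymes and proteasome subunits are higher after anti-CD3, and the ribosomal proteins, mitochondrially encoded genes, CD8 T cell markers and small nucleolar RNAs are lower.

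The motif shares over whole promoter sets were less marked than within the interferon and ATF4 lists. Among 403 promoters of genes higher by 2-fold or more, 10.9% held the AP-1 motif, TGANTCA, against 4.93% of all promoters, and 7.80% of 372 promoters of genes lower by 2-fold or more held it. The κB motif was present in 7.44% of the higher, 7.53% of the lower and 4.88% of all promoters. The E-box, CACGTG, was present in 5.71% of the higher, 6.18% of the lower and 10.3% of all promoters. All motifs were sought on both strands in windows of the same length, and these shares are descriptions.

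Anti-CD3 was also applied to KO cells, and their response can be set against that of WT cells by the genotype by stimulation interaction. This is the KO response minus the WT response, so a smaller fall in KO cells is also positive. At the same threshold 9 genes (0.0554%) differed, 8 (0.0492%) with a positive and 1 (0.00616%) with a negative interaction. Of the former, 6 (0.0369%) differed by 2-fold or more, and 2399 genes had an unadjusted p under 0.05. The call depended strongly on the libraries and tools. With DESeq2 212 genes were called, and 0 to 5 when any of the 6 WT libraries was left out. Without the 2 KO libraries that stood apart in GC contrast, 136 were called. These were unstimulated replicate 2 (1.151) and replicate 3 with both antibodies (-1.15), which is in the fit but not in the interaction. GC contrast also separated the genotypes. It was 0.103 to 0.497 in the other KO unstimulated and anti-CD3 libraries and -0.747 to -0.114 in the WT ones. KO unstimulated replicate 2 held 160059285 counts, and every other library of the study 16635826 to 38269033. The part of these differences in the interaction was not tested. Cdk6 had the smallest adjusted p, 0.00887, with a response of 1.65 in KO and -0.07 in WT cells, an interaction of 1.72 ± 0.22. Hsph1 responded by 1.66 in KO and 0.52 in WT, Igfbp4 by -2.84 and -4.16, Umps, an enzyme of pyrimidine synthesis, by 1.32 and 0.52, each in that order. Another 4 with a positive interaction were chosen after their values were seen. They were Cd200, an inhibitory ligand, with responses of 3.46 and 1.25, and Cish, an inhibitor of cytokine signals, with 3.33 and 1.20. The others were the polo-like kinase Plk2, with 0.74 and -1.27, and the cyclin Ccnd2, with 0.66 and -0.19. Most genes called in WT cells had no interaction call: Ifng responded by 3.41 in WT and 5.98 in KO cells without an interaction call (2.57, adjusted p = 0.0502), Fos by -6.25 and -5.63, Xcl1 by 6.34 and 6.69, and Gbp2 by 3.50 and 3.02. A p above the threshold does not show that these responses were alike.

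WT cells given anti-CD28 together with anti-CD3 were compared with those given anti-CD3 alone, which are the same 3 libraries as above. With edgeR 0 of 16246 genes (0.0%) were called, with 3506 at an unadjusted p under 0.05, while DESeq2 called 517, and 4780 were called when only these 2 groups were fitted. Without the 2 KO libraries that stood apart, the count was 2932. The absence of calls therefore did not hold across fits and gives no ground for calling the conditions alike. The 2 libraries with both antibodies had GC contrasts of 0.520 and 0.571, outside the range of the 6 libraries above, and the part of this in the counts was not tested.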

How the data were processed

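The authors deposited whole-number read counts per gene for each library. Alignment and counting used STAR 2.5.2 and RSEM 1.3.0 on GRCm38 (mm10), per the submitters' processing notes; the rounding of expected counts, the strand setting and the annotation release were not given in the sources used here. Of 53679 identifiers, 53650 matched GENCODE vM21, which gave names, gene types and positions, and 24955 had 0 counts in every library.

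Genes were filtered by edgeR's filterByExpr, scaled by TMM and tested with edgeR 4.0.16 (R 4.3.3) by the quasi-likelihood F test with Benjamini-Hochberg adjustment over all 16246 genes. The fit used all 17 libraries, with 1 coefficient per group and 11 residual degrees of freedom; the standard error is the log2 fold change divided by the square root of F. CPM use TMM-scaled library sizes. On simulated data 88% of 100 genes changed 2-fold and 30% of 100 changed 1.5-fold were recovered, and 4 unchanged genes were called. The simulation gave all genes the same spread and held no library that stood apart from its group. These rates may therefore not hold for the real libraries. Intervals of count ratios are exact and cover counting error only. No pair of libraries agreed within sampling noise: chi-square per gene between replicates was 10.7 to 43.2. Same-numbered libraries did not deviate together, so numbers were not treated as pairs.

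Members and lists were chosen with earlier results of these data known, and the GAS motif was added after the data were seen. Genes named are a fixed set of 40, the 15 highest and 15 lowest well expressed protein-coding changes whose groups do not overlap, the 10 largest rises and falls in CPM, the 5 highest and lowest non-coding genes, up to 4 per direction of each list by adjusted p, and other cell types' markers that were called or above 5 CPM; from these the text gives examples, and some are not reported here. Promoters are RefSeq sequences; the first listed was used for 1999 genes with more than 1. Alternatives used RLE scaling, DESeq2 1.42.0, limma 3.58.1, other filters, other samples, a replicate block and a GC correction. Figures used matplotlib 3.10.9.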

Additional observations from a re-analysis of the deposited data

Results flagged for a closer look

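The response to anti-CD3 differed between KO and WT cells, by the interaction term of edgeR's quasi-likelihood test, for 4 genes described above. The interaction was positive for Umps (0.80), Hsph1 (1.14), Igfbp4 (1.32) and Cdk6 (1.72). For Igfbp4 this was a smaller fall in KO cells, and for the others a higher log2 fold change there. None of the 4 calls held in every fit. The call for Umps was lost on leaving out any of the 6 WT libraries (adjusted p = 0.0959 to 0.1396), with RLE scaling (0.0553) and with a replicate block (0.054). Those for Hsph1 and Igfbp4 were each lost on leaving out any WT library other than unstimulated replicate 1 (0.0598 to 0.0978 and 0.057 to 0.0939). That for Cdk6 was lost without stimulated replicate 1, stimulated replicate 2 or unstimulated replicate 2 (0.0518 to 0.0585).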

How the results depend on the processing

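The number of genes called in WT cells (3956) was 3943 with RLE scaling, 4214 with DESeq2, 5688 with limma voom and quality weights, 3499 with no filter, 3797 with a filter of 1 CPM, 5150 with only the 2 groups fitted, 5506 with a GC correction, 5249 without the 2 KO libraries that stood apart, and 2949 to 3356 on leaving out each WT library. The interaction count (9) was 8 with RLE, 212 with DESeq2, 839 with voom, 63 with no filter, 13 with a filter of 1 CPM, 475 with only the groups compared, 362 with a GC correction, 136 without the 2 KO libraries and 0 to 5 on leaving out each WT library. The count for both antibodies against anti-CD3 (0) was 0 with RLE and with the filter of 1 CPM, 517 with DESeq2, 6080 with voom, 24 with no filter, 4780 with only the groups compared, 4 with a GC correction, 2932 without the 2 KO libraries and 0 to 1 on leaving out each WT anti-CD3 or unstimulated library. With a replicate block the 3 counts were 3877, 6 and 0, and with the block and the GC correction 5581, 595 and 14; deviations of same-numbered libraries correlated at -0.1832, -0.1007 and -0.1996 over 11579 genes. The cause of these differences was not tested. Direction reversed for 2 uncalled genes: Tbx21 (-0.0364 without WT unstimulated replicate 1, the lowest of a range up to 0.2597) and Prf1 (0.0406 when the stimulated WT library numbered 2 was left out, 0.0227 when the unstimulated library numbered 1 was, in a range from -0.1128). Of 343 named genes, 22 to 36 lost their call on leaving out a WT library and 0 to 12 under any other alternative. In simulated data with the same spread for all genes 30% of 1.5-fold changes were recovered.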

Other observations

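Among small RNAs of the nucleus, those called in WT cells were all lower after anti-CD3. Of 111 small nucleolar RNAs, which guide modification of ribosomal RNA, 0 were called higher and 45 lower (40.5%), with a median of -0.70. Their summed level was 6899, 8795 and 7385 CPM in unstimulated and 5687, 5159 and 4688 CPM in stimulated libraries, with no overlap. Of 36 small nuclear RNAs, components of the spliceosome, 0 were called higher and 11 lower, with sums of 4358, 5482 and 4926 CPM before and 3546, 3277 and 2847 CPM after. Among the host genes of small nucleolar RNAs, 0 of 12 were called higher and 3 lower: Snhg8 fell from 48.3, 43.8 and 45.4 CPM to 21.9, 23.3 and 23.8 CPM, Snhg1 by 0.74 ± 0.17 and Snhg12 by 0.67 ± 0.14.

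Of 117 variable gene segments of the T cell receptor tested, 0 were called higher and 43 lower, and their summed level was 572, 546 and 542 CPM before and 362, 377 and 377 CPM after. Trbv17 fell from 17.9, 16.2 and 15.6 CPM to 8.02, 8.73 and 8.96 CPM. Of 558 long intergenic RNAs 14.9% were called higher and 15.6% lower, and of 698 antisense RNAs 11.9% and 7.59%, beside 11.3% and 13.1% over all genes. BE692007, a non-coding gene, rose from 91.0, 72.4 and 88.1 CPM to 189.8, 227 and 217 CPM.

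Of 25 epigenetic enzymes 4 were called higher and 3 lower, shares near those over all genes; 5 were lower without KO unstimulated replicate 2 and KO replicate 3 with both antibodies. Dnmt3a, a de novo DNA methyltransferase, rose from 51.6, 48.7 and 56.5 CPM to 113, 106 and 103 CPM, and Tet1, which oxidises methylcytosine, fell from 55.3, 39.99 and 38.1 CPM to 10.9, 13.3 and 13.01 CPM. In the TGF-β pathway 2 of 14 were called higher and 5 lower. Tgfbr3, the coreceptor betaglycan, fell from 58.2, 50.02 and 57.7 CPM to 25.4, 21.9 and 21.2 CPM, and the corepressor Tgif2 rose from 7.07, 6.80 and 8.32 CPM to 17.5, 17.8 and 15.1 CPM. In the autophagy and lysosome list 5 of 27 were called higher and 4 lower, shares near those over all genes. The number higher was 3 without stimulated replicate 2 or unstimulated replicate 2. The number lower was 2 without stimulated replicate 3 and 1 without unstimulated replicate 2. Gabarapl1 rose by 1.57 ± 0.23. Of 16 genes of potassium channels and ion transport 3 were called higher and 4 lower, the former being 0 without unstimulated replicate 1 and 1 without any of the stimulated libraries or unstimulated replicate 2. Atp2a3, a calcium pump of the endoplasmic reticulum, fell from 116, 133 and 132 CPM to 54.6, 42.8 and 52.3 CPM. Alcam, an adhesion molecule that binds CD6, rose from 2.27, 2.09 and 3.00 CPM to 27.1, 32.8 and 33.4 CPM.

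The share of protein-coding genes called lower varied with GC content, at 11.8%, 17.9%, 17.7%, 12.98% and 8.32% over 5 equal classes from the GC-poorest to the GC-richest, while the share called higher was 9.71%, 12.2%, 13.9%, 13.8% and 11.01%. Over 5 classes of mean level the share called lower was 10.6% in the lowest and 18.8% in the highest.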
